A study of Mus musculus with 6 samples.

Results

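The 35 genes described here are linked to endothelial cells, the cells that line blood vessels, though other cells also express some of them. They were selected by name, with no threshold on their values but with earlier results of these data known. Each of the 35 matched 1 of the 24402 loci in the deposited table of all loci by its gene symbol, and no member shared its locus with another symbol. RNA had been sequenced from whole lungs of C57BL/6 mouse embryos at 12.5 *dpc*, as 3 wild-type (WT) libraries and 3 libraries of *Yap-flox/flox; Shh-Cre/+* littermates (*Yap* mutants). The Shh-Cre allele makes Cre recombinase in the lung epithelium, where *Shh* is transcribed, so vessel cells are not the cells in which *Yap* is meant to be deleted. According to the paper, the allele disrupts the *Shh* locus and contributed to the lower *Shh* levels of these mutants, though probably not alone. The labels name no floxed or Cre allele in the controls, so loss of *Yap* and the presence of the Shh-Cre allele cannot be told apart, and the number of embryos behind a library is not given in the sources used here. The table holds 1 value per genotype, already summarised over its libraries, which was read as FPKM (fragments per kilobase of transcript, scaled to the number of mapped fragments). The spread between libraries and the depth of each library are therefore unknown, there is no replicate check, and every difference below is one between the WT value and the *Yap* mutant value, with no p-value.

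Endothelial cells of the embryonic lung form a plexus in the mesenchyme that surrounds the branching airways. Their identity is set by transcription factors of the ETS and SOX F families, acting with TAL1 and LMO2, which blood progenitors also use. At their surface they carry junction proteins that seal the vessel wall and receptors for angiopoietins, apelin, adrenomedullin and endothelins, through which vessels grow, mature and respond to the tissue around them. Arteries, veins, capillaries and lymphatics add their own markers to this shared set.

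All 35 members had a mean of at least 1 FPKM, the floor used here, as did 12716 of all loci. Endothelial genes were detected in both genotypes, though whole-lung RNA does not show which cells the reads of a member come from. The defining junction genes *Cdh5* and *Pecam1* stood at 36.3 and 29.6 FPKM in WT lungs, higher than 80.1% and 75.3% of the loci over the floor, and no member was listed at 0 in either genotype. In WT lungs the members ran from 2.14 FPKM (*Ptprb*) through a median of 14.9 FPKM to 58.5 FPKM (*Ramp2*). In *Yap* mutant lungs they ran from 2.54 FPKM (*Ptprb*) through a median of 18.4 FPKM to 54.8 FPKM (*Egfl7*). Summed over the 35 genes, the level was 660.2 FPKM in WT and 681.8 FPKM in *Yap* mutant lungs, a ratio of 1.03. In whole-lung RNA, a change in the number of endothelial cells and a change in RNA per cell cannot be told apart.

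**Figure D1:**
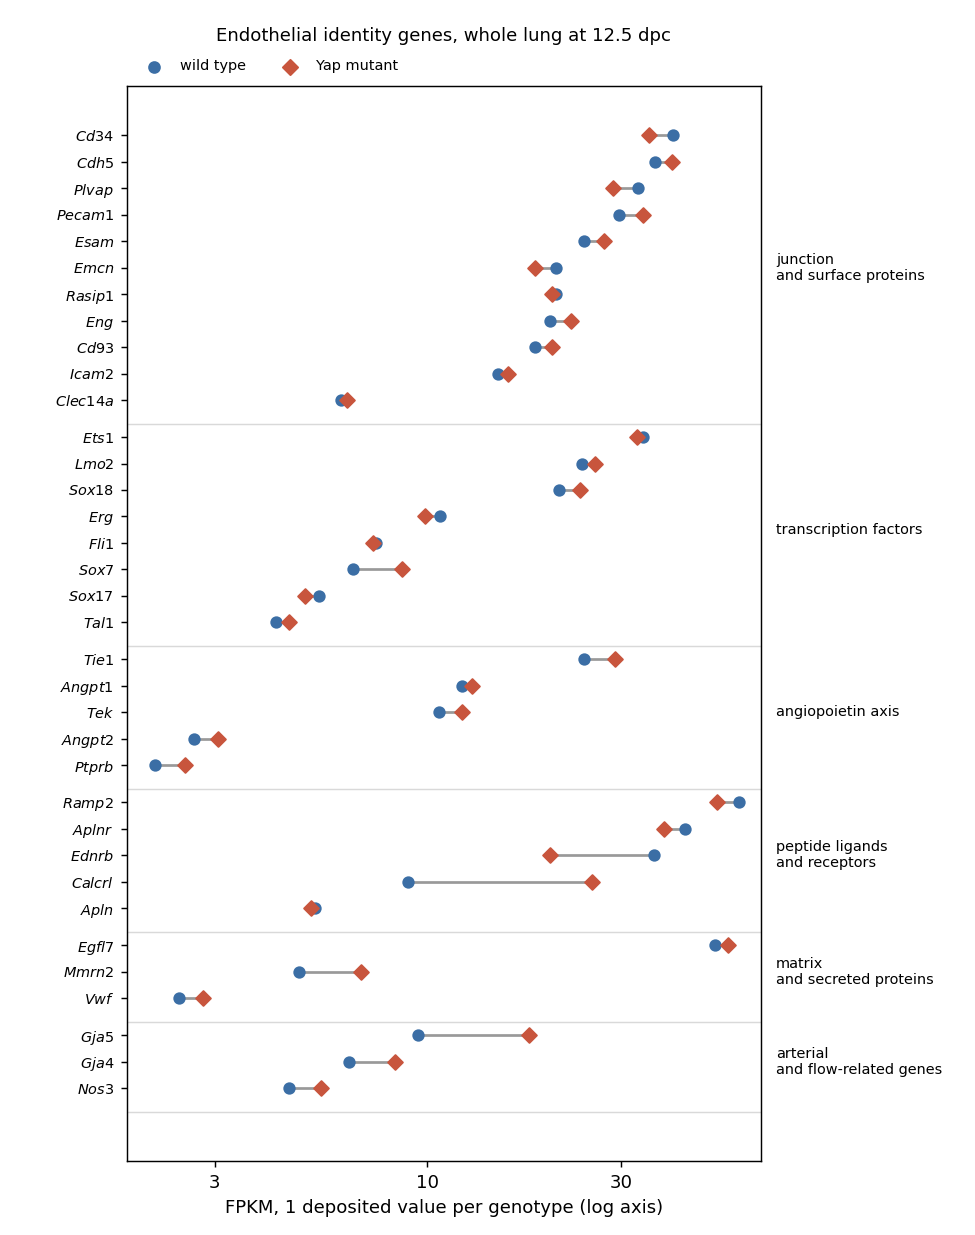
FPKM of each of the 35 endothelial genes (log axis) in wild-type lungs (circles) and Yap mutant lungs (diamonds), 1 deposited value per genotype, grouped by role and with a line joining the pair. Most pairs lie close together, whereas *Calcrl* (8.96 and 25.5 FPKM), *Gja5* (9.47 and 17.8 FPKM) and *Ednrb* (36.1 and 20.0 FPKM) are drawn far apart.

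Changes are given as log2 of *Yap* mutant over WT after adding 0.1 FPKM to both values, so that a positive value means higher in *Yap* mutant lungs. Over the 35 members the median was 0.11, beside -0.01 over the 12716 loci, and the quartiles of the members were -0.05 and 0.20, beside -0.11 and 0.11 over all those loci. Of the members, 23 (65.7%) lay above 0 and 12 below it, where 48.2% of all loci lay above 0. Scaling both genotypes to the same total FPKM adds 0.04 to each log2 change, which put 26 members above 0 and 9 below and turned *Rasip1*, *Fli1* and *Apln* from below to above. At least a 1.5-fold difference was the bound for calling a gene higher or lower. By it, 2 members counted as higher (5.71% of the members, against 4.44% of all loci) and 1 was lower (2.86%, against 3.30%). These shares are close to the background. The higher pair was *Calcrl* and *Gja5*, and the lower gene was *Ednrb*. At a bound of 25% (the larger value over the smaller), 5 members were higher (14.3%, against 9.63% of all loci) and 1 was lower (2.86%, against 6.80%), which added *Mmrn2*, *Sox7* and *Gja4* to the higher ones. The other 29 members differed by less than 25%. Without *Calcrl*, *Gja5* and *Ednrb*, the summed level of the 32 genes left was 605.6 FPKM in WT and 618.6 FPKM in *Yap* mutant lungs.

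**Figure D2:**
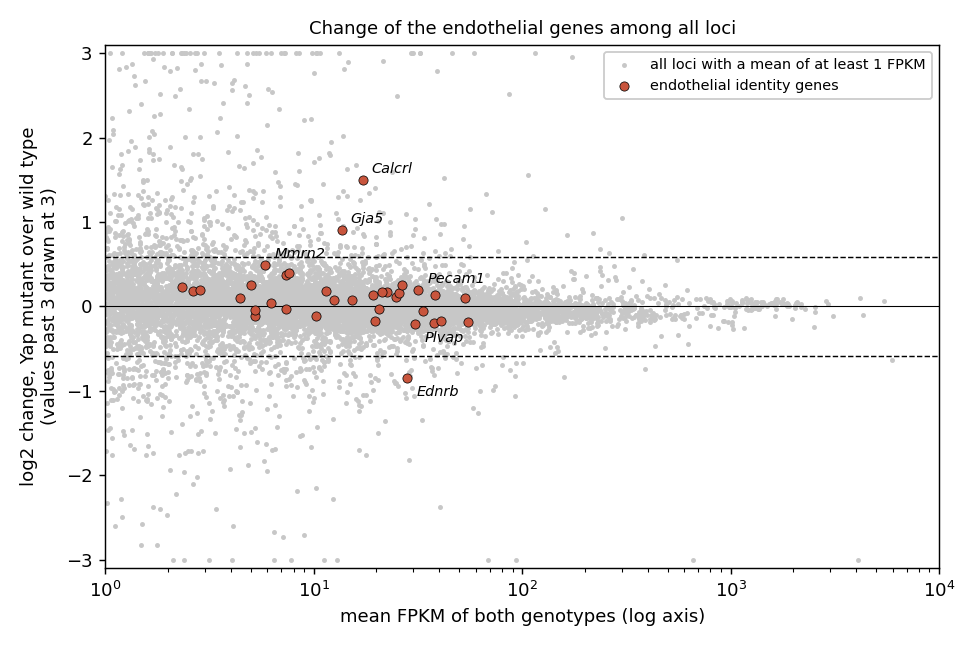
Log2 change of Yap mutant over wild-type lungs against the mean FPKM of both genotypes (log axis) for all 12716 loci over the floor of 1 FPKM (grey, values past 3 drawn at 3) and the 35 endothelial genes (red), with dashed lines at 1.5-fold. Of the endothelial genes, 32 lie between the dashed lines, *Calcrl* (1.5) and *Gja5* (0.90) lie above the upper line and *Ednrb* (-0.85) lies below the lower one.

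A few values of the whole lungs stand beside these, to be read against the 4.44% of all loci higher and 3.30% lower by at least 1.5-fold. *Yap1* itself had 76.1 FPKM in WT and 65.6 FPKM in *Yap* mutant lungs. Lung epithelium genes had a median log2 change of -0.61, with 11 of 18 lower by at least 1.5-fold and 2 higher (*Sftpc*, 0.97, and *Id2*, 0.84). Cardiac muscle genes were higher in *Yap* mutant samples at 12 of 12 loci over the floor, with a median log2 change of 3.05. Summed over all 14 listed genes, their level was 132.4 FPKM in WT and 969.8 FPKM in *Yap* mutant samples. Blood and macrophage genes had a median of 0.17. Lung mesenchyme genes, from the tissue that holds the vessels, had a median of 0.12 but went both ways, with 4 of 16 lower by at least 1.5-fold (*Hhip*, *Ptch1*, *Gli1* and *Foxf1*, from -2.67 to -1.0) and 2 higher (*Fgf10*, 1.34, and *Prrx1*, 1.12). The 4 Y-linked genes looked at lay at or under 0.0163 FPKM in WT, whereas in the mutants they ran from 4.61 to 16.5 FPKM, and *Xist* stood at 97.0 and 50.4 FPKM. The part of tissue make-up, of lower *Shh* or of sex in the results below was not tested.

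*Calcrl* had the largest change of the 35 genes. It encodes the receptor that pairs with a RAMP protein, binding adrenomedullin when paired with RAMP2 or RAMP3 and calcitonin gene-related peptide (CGRP) when paired with RAMP1. The locus, on the minus strand of mm10 at chr2:84330604-84425447, had 8.96 FPKM in WT and 25.5 FPKM in *Yap* mutant lungs. This is 2.82-fold higher, a log2 change of 1.5, and 1.20% of the 12716 loci were higher by as much or more. By level, *Calcrl* ranked 23 among the 35 genes in WT and 12 in *Yap* mutant lungs. *Ramp2*, its main vascular partner and the most abundant member in WT lungs, had 58.5 FPKM in WT and 51.5 FPKM in *Yap* mutant lungs. This log2 change of -0.18 was one that 13.7% of the 12716 loci reached downward. Without the spread between libraries, so small a difference cannot be read as a change in the other direction.

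The other genes of this receptor were looked up after the members' values had been seen. *Ramp1* had 0.694 FPKM in WT and 2.68 FPKM in *Yap* mutant lungs (log2 change 1.81), while *Ramp3* had 0.715 and 0.769 FPKM. *Adm*, which encodes adrenomedullin, had 0.585 FPKM in WT and 2.65 FPKM in *Yap* mutant lungs, a log2 change of 2.01. *Calca* and *Calcb*, which encode forms of CGRP, went apart. *Calca* had 1.29 FPKM in WT and 3.88 FPKM in *Yap* mutant lungs, and *Calcb* had 2.67 FPKM in WT and 0.291 FPKM in *Yap* mutant lungs. The ligands and the minor RAMPs were thus low, at under 4 FPKM in both genotypes, next to *Calcrl* and *Ramp2*.

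*Ednrb* was the 1 member lower by at least 1.5-fold. It encodes the endothelin B receptor, present on endothelial cells and also needed by neural crest cells, and lies on the minus strand at chr14:103814615-103844476. It had 36.1 FPKM in WT and 20.0 FPKM in *Yap* mutant lungs, 1.80-fold lower, a log2 change of -0.85, and 1.73% of the 12716 loci were lower by as much or more. Its rank by level went from 6 to 17 among the 35 genes. Of the rest of the endothelin axis, also looked up after the members, *Edn3*, a ligand of this receptor, had 6.91 FPKM in WT and 2.38 FPKM in *Yap* mutant lungs (log2 change -1.50). *Ednra*, the endothelin A receptor of mesenchyme and smooth muscle, had 75.3 FPKM in WT and 54.2 FPKM in *Yap* mutant lungs at its main locus (log2 change -0.47), and a second locus of that name held under 1 FPKM in both. *Ece1*, the enzyme that releases active endothelin, had 18.6 and 20.4 FPKM, and *Edn1*, the endothelin of vessel walls, had 1.32 and 1.11 FPKM. Both receptors and *Edn3* were thus lower in *Yap* mutant lungs, while *Ece1* was not.

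Genes of neural crest derivatives, a further cell type that carries *Ednrb*, were listed after its value had been seen. Of 13 such genes, 7 reached the floor, with a median log2 change of -0.34. Lower by at least 1.5-fold was 1 of them (14.3%, against 3.30% of all loci), the neuronal tubulin *Tubb3* (4.46 and 2.52 FPKM). Higher was also 1 (14.3%, against 4.44%), *Mitf* (0.756 and 2.28 FPKM). At 25%, 4 were lower (57.1%, against 6.80%) and 1 was higher (14.3%, against 9.63%). The summed level of the 13 was 22.3 FPKM in WT and 19.7 FPKM in *Yap* mutant lungs. Their part in the lower value of *Ednrb* was not tested.

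*Gja5* encodes a connexin of gap junctions that arterial endothelium shares with the muscle of the atria. Its locus, on the plus strand at chr3:97032402-97053634, had 9.47 FPKM in WT and 17.8 FPKM in *Yap* mutant lungs, which is 1.87-fold higher, a log2 change of 0.90 reached by 2.45% of the 12716 loci. *Gja4*, the other arterial connexin, had 6.42 FPKM in WT and 8.33 FPKM in *Yap* mutant lungs (log2 change 0.37). *Nos3*, the endothelial nitric oxide synthase, had 4.56 and 5.47 FPKM (log2 change 0.26). All 3 genes of the arterial and flow-related group were higher in *Yap* mutant lungs, *Gja5* most. *Gja1* and *Gjc1*, the widely expressed connexins looked up after the members, had 65.4 and 53.0 FPKM in WT and 59.8 and 47.1 FPKM in *Yap* mutant lungs. Beside *Gja5*, the atrial genes *Myh6* and *Nppa* stood at 4.39 and 0.581 FPKM in WT and at 60.2 and 57.9 FPKM in *Yap* mutant samples. The part of heart muscle in the value of *Gja5* was not tested. An antisense RNA is annotated opposite *Gja5*, and the gene *Atg9b* and an antisense RNA are annotated opposite *Nos3*. Whether the counting used the strand of the reads is not given in the sources used here.

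**Figure D3:**
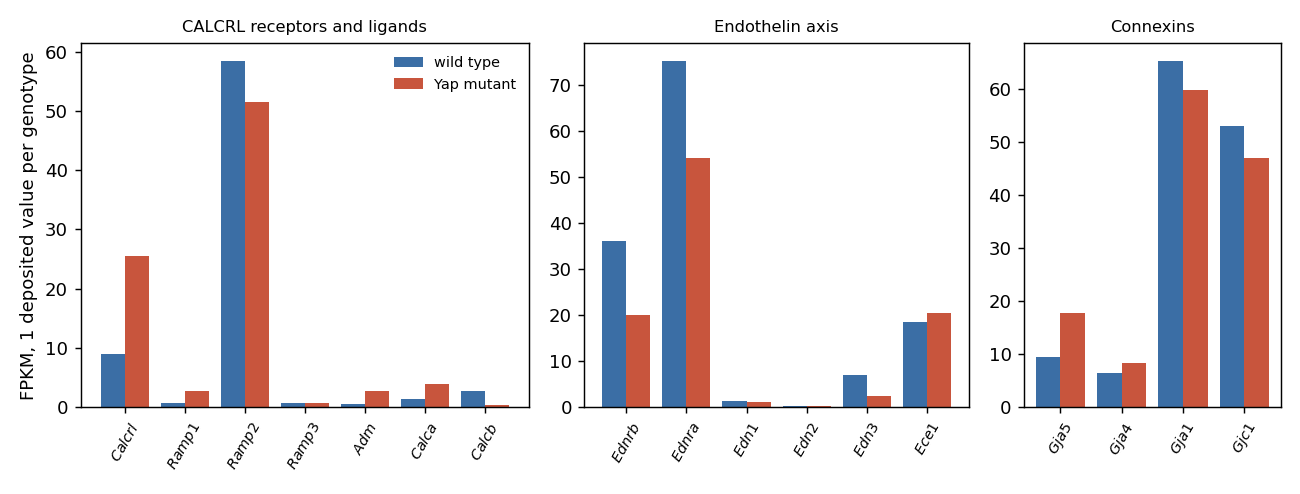
FPKM of the receptor and ligand genes around *Calcrl* (left), of the endothelin axis around *Ednrb* (middle) and of connexins around *Gja5* (right) in wild-type (blue) and Yap mutant lungs (red), 1 deposited value per genotype, linear axes from 0. *Calcrl*, *Ramp1*, *Adm*, *Calca*, *Gja5* and *Gja4* are higher and *Ednrb*, *Ednra*, *Edn3* and *Calcb* are lower in Yap mutant lungs.

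Sequence before each transcript start in a RefSeq table (GRCm38.p6) was taken to show the promoter stretch of the genes that differed most. Of the 35 members, 15 matched, with 20 starts. In the 250 bases before each start, 3 motifs were searched on both strands. They were GGAATG, which TEAD factors bind, CCGGAA, a form of the site that ETS factors bind, and GACCACCCA, which GLI factors bind. The TEAD and ETS letters can overlap at GGAA. Among all 32851 starts, these were found in 12.6%, 12.0% and 0.225%. Other forms of the ETS site with the letters GGAA were not searched. The 3 genes past 1.5-fold held none of the 3 motifs in this window. Their sequences are printed 5′ to 3′ on the strand of the gene, leaving out bases that lie in an annotated exon. *Calcrl* is shown over 105 bases on the minus strand (chr2:84425412-84425516), *Gja5* over 250 on the plus strand (chr3:97032152-97032401) and *Ednrb* over 250 on the minus strand (chr14:103843702-103843951). These starts need not be where the deposited locus begins. All 250 bases shown for *Ednrb* and 36 of the 105 for *Calcrl* lie inside the deposited locus, which begins upstream of these RefSeq starts, while those of *Gja5* end just before its locus.
Calcrl: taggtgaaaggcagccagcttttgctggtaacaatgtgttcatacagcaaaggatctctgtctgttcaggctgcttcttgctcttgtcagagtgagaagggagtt
Gja5: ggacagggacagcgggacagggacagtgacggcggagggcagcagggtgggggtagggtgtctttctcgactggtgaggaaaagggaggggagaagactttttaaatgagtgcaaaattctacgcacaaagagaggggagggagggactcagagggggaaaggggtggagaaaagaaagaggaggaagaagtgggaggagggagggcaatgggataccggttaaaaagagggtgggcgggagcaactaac
Ednrb: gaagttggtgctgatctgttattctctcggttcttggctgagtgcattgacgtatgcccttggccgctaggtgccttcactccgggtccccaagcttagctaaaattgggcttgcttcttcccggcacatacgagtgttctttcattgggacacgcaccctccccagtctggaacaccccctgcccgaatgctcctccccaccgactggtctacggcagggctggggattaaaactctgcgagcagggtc

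None of the 20 starts held CCGGAA, the form of the ETS site searched, or the GLI letters. The TEAD letters were held by 3, in *Tal1*, *Clec14a* and *Erg*. These 3 genes differed by less than 25% between the genotypes, with log2 changes of 0.10, 0.04 and -0.12. The windows below give 30 bases to each side, with the match in capitals. They lie at chr4:115056343-115056408 (plus strand) for *Tal1*, chr12:58269353-58269418 (minus strand, the match read as CATTCC) for *Clec14a* and chr16:95530474-95530539 (minus strand, 1 of 3 listed starts, all 66 bases inside the deposited locus) for *Erg*.
Tal1: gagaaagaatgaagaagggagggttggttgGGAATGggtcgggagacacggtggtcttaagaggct
Clec14a: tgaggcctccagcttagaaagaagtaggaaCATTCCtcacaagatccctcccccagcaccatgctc
Erg: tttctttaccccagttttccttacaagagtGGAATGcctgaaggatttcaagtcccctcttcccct

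The junction and surface genes stayed within 25% at all 11 loci, as did 10626 of the 12716 loci over the floor. Their median log2 change was 0.08, with a range from -0.20 to 0.19. *Cdh5*, which encodes VE-cadherin, the cadherin of endothelial junctions, had 36.3 FPKM in WT and 39.9 FPKM in *Yap* mutant lungs (log2 change 0.14). *Pecam1*, an adhesion molecule at the same junctions, had 29.6 and 33.9 FPKM (log2 change 0.19), and *Esam*, a further junction protein, had 24.3 and 27.2 FPKM (log2 change 0.16). All 3 of these junction genes were a little higher. *Icam2*, a ligand for leukocyte integrins, had 14.9 and 15.8 FPKM. *Eng*, a co-receptor for ligands of the TGF-beta family, had 20.0 FPKM in WT and 22.5 FPKM in *Yap* mutant lungs. *Rasip1*, needed to open vessel lumens, had 20.7 and 20.3 FPKM.

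Lower in *Yap* mutant lungs were 3 abundant surface genes. *Cd34*, a sialomucin that blood progenitors also carry, had 40.1 FPKM in WT and 35.2 FPKM in *Yap* mutant lungs (log2 change -0.19). *Plvap*, which builds the diaphragms of fenestrae and caveolae, had 32.9 and 28.5 FPKM (log2 change -0.20), and *Emcn*, a sialomucin of capillaries and veins, had 20.8 and 18.4 FPKM (log2 change -0.17). The largest of these differences, that of *Plvap*, is 1.15-fold.

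*Clec14a* and *Cd93* encode related lectin-like receptors that bind multimerin-2, the matrix protein encoded by *Mmrn2*. The receptors differed little, *Clec14a* with 6.14 FPKM in WT and 6.33 FPKM in *Yap* mutant lungs and *Cd93* with 18.4 and 20.2 FPKM. *Mmrn2* had 4.84 FPKM in WT and 6.85 FPKM in *Yap* mutant lungs, 1.41-fold higher and the largest log2 change (0.49) below the 1.5-fold bound, a difference reached upward by 5.52% of all loci. The other matrix and secreted members were *Egfl7*, an endothelial matrix protein, with 51.0 and 54.8 FPKM, and *Vwf*, the clotting factor stored by endothelium, with 2.45 and 2.80 FPKM. All 3 genes of this group lay above 0.

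Among the 8 transcription factor genes, 4 lay above 0 and 4 below (5 and 3 with the same total), with a median log2 change of 0.04. The SOX F genes lay on both sides of 0. *Sox7* had 6.57 FPKM in WT and 8.68 FPKM in *Yap* mutant lungs (1.32-fold higher, log2 change 0.40), *Sox18* had 21.1 and 23.7 FPKM (0.17), and *Sox17*, the arterial one, had 5.41 and 5.0 FPKM (-0.11). Differences as large in the same direction were reached by 7.46%, 18.7% and 23.8% of all loci. The ETS factor genes lay slightly under their WT values, *Fli1* only without the scaling to the same total. *Ets1* had 33.9 and 32.7 FPKM, *Fli1* had 7.48 and 7.33 FPKM, and *Erg* had 10.7 and 9.89 FPKM, with log2 changes of -0.05, -0.03 and -0.12. *Tal1* and *Lmo2*, whose proteins act in one complex, had 4.25 and 24.0 FPKM in WT and 4.57 and 25.8 FPKM in *Yap* mutant lungs, log2 changes of 0.10 and 0.11.

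The angiopoietin axis lay above 0 at 5 of 5 loci, with a narrow range from 0.08 to 0.25 and no gene past 25%. Of the 12716 loci over the floor, 48.2% lay above 0 and 10626 stayed within 25%. *Angpt1*, the agonist made mainly by cells around the vessels, had 12.2 FPKM in WT and 12.9 FPKM in *Yap* mutant lungs. *Angpt2*, which can oppose it and is made by endothelium, had 2.66 and 3.06 FPKM. *Tek*, their receptor, had 10.7 and 12.1 FPKM, and *Tie1*, the related receptor that modulates it, had 24.2 and 28.9 FPKM. *Ptprb*, the phosphatase that acts on TEK and VE-cadherin, had 2.14 and 2.54 FPKM. *Angpt2* lies inside the larger gene *Mcph1* on the opposite strand, so its value is uncertain if strand was not used.

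Apelin and its receptor differed little. *Aplnr*, found on venous and growing endothelium, had 43.1 FPKM in WT and 38.1 FPKM in *Yap* mutant lungs (log2 change -0.18). *Apln*, the ligand gene and the 1 member on the X chromosome, had 5.31 and 5.16 FPKM (log2 change -0.04). Together with *Ednrb*, *Calcrl* and *Ramp2* they make up the ligand and receptor group, in which 4 of 5 genes lay below 0 and *Calcrl* alone above it (3 of 5 below with the same total, where *Apln* turned). This group had the widest spread of the 6, from -0.85 to 1.5.

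Other endothelial genes, in lists that exclude the members, gave the wider setting. Of 28 other pan-endothelial genes 25 reached the floor, and 21 of these lay above 0, with a median log2 change of 0.13. Their most abundant genes were *Cldn5*, the tight junction claudin of endothelium (47.9 FPKM in WT and 55.0 FPKM in *Yap* mutant lungs), *Kdr*, the main VEGF receptor (20.7 and 22.5 FPKM), and *Ldb2* (18.3 and 17.3 FPKM). Higher by at least 1.5-fold were 2 of the 25 (8%, against 4.44% of all loci), *Gpihbp1* (1.07 and 2.02 FPKM) and *Palmd* (1.34 and 2.34 FPKM). None (0) was lower, against 3.30% of all loci. At 25%, 7 were higher (28%, against 9.63%) and 2 were lower (8%, against 6.80%).

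By vessel type, 16 arterial and Notch genes over the floor had a median of 0.06, with 8 above 0 and 8 below it (10 and 6 with the same total). Only *Unc5b*, a netrin receptor of arterial and sprouting endothelium, passed 1.5-fold (6.25% of these genes, against 4.44% of all loci). It had 16.2 FPKM in WT and 24.4 FPKM in *Yap* mutant lungs. The most abundant were *Cxcl12* (46.3 and 35.6 FPKM), *Hes1* (30.5 and 26.4 FPKM) and *Jag2* (27.5 and 27.2 FPKM, a locus shared with *Nudt14*), all of which other lung cells make as well. The 4 venous genes over the floor all lay below 0 (3 of 4 with the same total, where *Ephb4* turned). Their median was -0.17, and none was past 25%. Among them were *Ephb4* (60.6 and 59.2 FPKM), *Nr2f2* (49.4 and 39.6 FPKM) and *Nrp2* (20.5 and 17.0 FPKM). Whole-lung RNA does not show whether these reads come from veins. Of 6 lymphatic genes over the floor, 1 was higher by at least 1.5-fold (16.7%, against 4.44% of all loci). This was *Prox1* (1.38 and 2.18 FPKM), which heart muscle also expresses. *Lyve1* (11.7 and 13.1 FPKM), *Vegfc* (10.2 and 9.19 FPKM) and *Vegfd* (9.05 and 8.60 FPKM, a locus shared with *Pir*) stayed within 25%. Of 13 flow and anticoagulant genes over the floor, 1 was lower by at least 1.5-fold (7.69%, against 3.30% of all loci). This was *Icam1*, an inflammatory adhesion molecule that epithelium also makes, with 5.13 FPKM in WT and 2.33 FPKM in *Yap* mutant lungs. *Cav1* (59.6 and 68.7 FPKM), *Thbd* (55.6 and 63.3 FPKM) and *Cavin1* (46.8 and 50.9 FPKM) were the most abundant of this list.

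**Figure D4:**
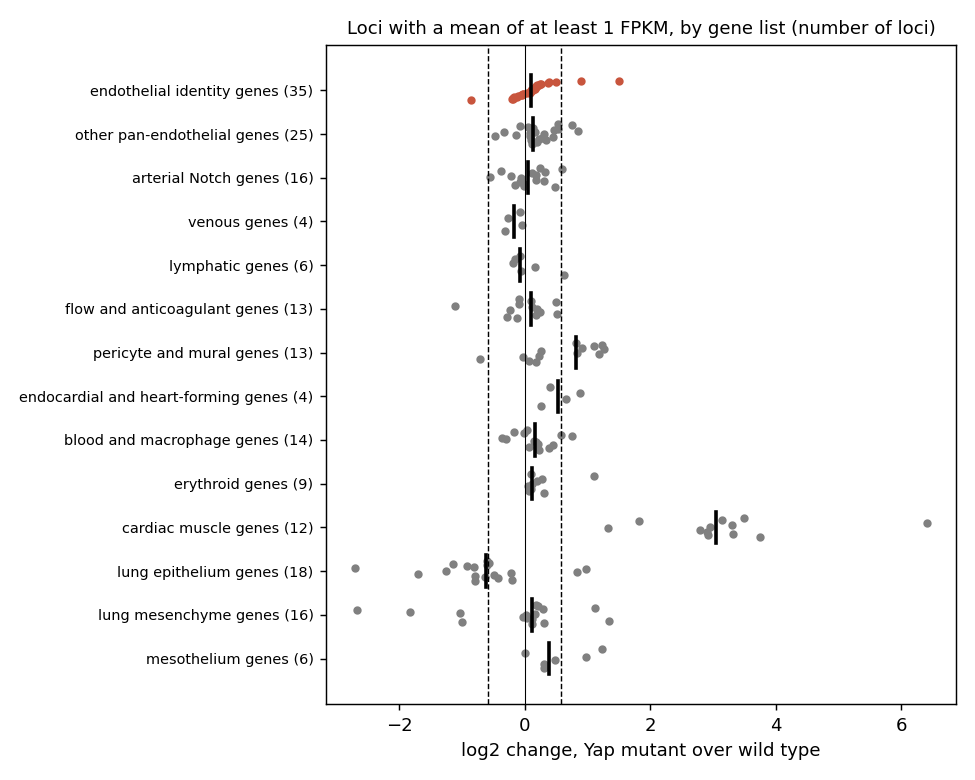
Log2 change of Yap mutant over wild-type lungs for each locus over the floor of 1 FPKM (points), by gene list with the number of loci in brackets, with black bars at the medians and dashed lines at 1.5-fold. The endothelial lists have medians from -0.17 (venous) to 0.13 (other pan-endothelial), while lung epithelium lies at -0.61 and cardiac muscle at 3.05.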

How the data were processed

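RNA from 3 wild-type and 3 *Yap* mutant whole-lung libraries was sequenced strand-specifically in paired ends and analysed by the authors on the Maverix platform. The submitters' processing notes name TopHat, Cuffdiff and mm10, with no version given in those notes. The authors deposited 1 FPKM value per genotype and locus in 2 tables, of all loci and of a shorter list. FPKM is the unit of a Cuffdiff gene table, and the header does not name it. The fold change and p-value columns hold the authors' own comparison and were not used. Values per library were not used here. No column belonged to other samples.

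Changes were computed as log2 of the ratio of the genotypes after adding 0.1 FPKM, which understates changes of low genes. Loci whose mean reached 1 FPKM were kept, and at least 1.5-fold counted as higher or lower. With 1 value per genotype no test was run, and no precision can be given. The 35 members and the lists were chosen with earlier results of these data known. All members are named, with the 3 most abundant loci of each other endothelial list and its loci past 1.5-fold. Partner and neural crest genes, and the other genes named beside the members, were chosen after values were seen. Locus starts count from 0 (9315 of 21012 single-symbol loci start 1 below the RefSeq gene), so 1 was added. All 35 members overlapped the RefSeq gene of their symbol on GRCm38. In GENCODE M21, 13 of the 35 loci overlap another gene, each at least partly on the opposite strand. Alternatives are listed at the end. Python 3.11.15, numpy 2.4.6, pandas 2.3.3 and matplotlib 3.10.9 were used.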

Additional observations from a re-analysis of the deposited data

How the results depend on the processing

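The members' median log2 change stayed between 0.10 and 0.16 under the 9 alternatives tried for it. These were a pseudocount of 0 or 1 FPKM, a mean of at least 5 FPKM, no filter, centring on the median of all loci, equal total FPKM, loci with a single symbol, the values of the shorter table, and leaving out 10 members that blood cells also express. Under those alternatives the counts of members stayed at 2 higher and 1 lower. The log2 change lay between 1.41 and 1.54 for *Calcrl*, between 0.84 and 0.94 for *Gja5*, and between -0.85 and -0.81 for *Ednrb*. Several alternatives could not have moved these results. All 35 members passed the floor and none shared its locus, so no filter and loci with a single symbol left them as they were. The mean of at least 5 FPKM and the leaving out of 10 members both kept *Calcrl*, *Gja5* and *Ednrb*. These alternatives could thus move the median but not the counts or those log2 changes. The threshold moved the counts. At 25% 5 members were higher (1 lower), and at 2-fold 1 was higher (*Calcrl*) and 0 were lower. No member's value differed by over 1% where the shorter table lists its locus, so using its values could not move the results either. No paired analysis was possible because the tables hold 1 value per genotype, and leaving out single libraries could not be run for the same reason. Without the spread between libraries, differences as small as those of most members cannot be read as changes or as their absence.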

Other observations

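Pericyte and mural genes, which mark the cells wrapped around vessels, spread more widely than the endothelial ones. Of 13 over the floor, 7 were higher in *Yap* mutant lungs by at least 1.5-fold (53.8%, against 4.44% of all loci). Lower was 1 (7.69%, against 3.30%), and the median log2 change was 0.83. The most abundant of them were *Pdgfrb* (36.3 FPKM in wild-type and 41.4 FPKM in *Yap* mutant lungs), *Notch3* (32.0 and 31.3 FPKM) and *Mcam* (25.3 and 30.5 FPKM), all within 25%. The higher ones included *Des* (17.6 and 37.7 FPKM), *Cox4i2* (4.08 and 7.75 FPKM), *Tbx18* (2.65 and 6.36 FPKM) and *Anpep* (2.96 and 5.38 FPKM). They also included *Ndufa4l2* (1.09 and 2.76 FPKM), *Ebf1* (1.02 and 1.89 FPKM) and *Abcc9* (0.767 and 1.87 FPKM). *Rgs5* was the lower one (13.9 and 8.46 FPKM). Of the higher ones, *Des* is also a gene of heart muscle and *Tbx18* one of mesothelium. The part of those tissues in these values was not tested.

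Cells that share genes with endothelium were measured as well. Of 4 endocardial and heart-forming genes, 2 were higher by at least 1.5-fold (50%, against 4.44% of all loci), *Gata4* (10.8 and 20.0 FPKM) and *Npr3* (18.8 and 29.6 FPKM). Of 14 blood and macrophage genes over the floor, 1 was higher (7.14%, against 4.44%), *Kit* (8.35 and 14.1 FPKM). *Pf4* (17.1 and 16.9 FPKM) and *C1qb* (12.0 and 13.6 FPKM) stayed within 25%. Erythroid genes had a median log2 change of 0.12 over 9 loci, led by the embryonic globin *Hbb-y* (4020 and 4303 FPKM). Mesothelium genes had a median of 0.40 over 6 loci, of which 2 were higher by at least 1.5-fold (33.3%, against 4.44%), *Tbx18* and *Krt14* (0.884 and 1.84 FPKM).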
